A study of Mus musculus with 12 samples.

Results

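The sites described here were CpG sites at which corpus spermatozoa held either the highest or the lowest methylation level of the 4 sperm populations sampled along the male tract. They were selected on the pooled methylation level, the percentage of methylated reads among all reads of the 3 replicates of a group. A site was taken when the pooled level of corpus spermatozoa lay at least 10 percentage points above, or at least 10 points below, those of testicular, caput and cauda spermatozoa. Of 13917 autosomal sites, each with at least 10 reads in all 12 samples, 268 met the rule. Corpus spermatozoa were hypermethylated at 109 of them and hypomethylated at 159. Because these values chose the sites, the position of corpus at its members is a description and carries no test.

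Methylation was measured by reduced representation bisulfite sequencing (RRBS), in which DNA is cut by a restriction enzyme that favours CpG-rich sequence and unmethylated cytosines are read as thymines. The 12 samples comprised testicular, caput, corpus and cauda spermatozoa, with 3 replicates each. All 4 groups came from untreated B6D2F1 mice aged 10 to 12 weeks that carry the transgenes CAG/su9-DsRed2 and Acr3-EGFP, the line RBGS002Osb. In these mice the ubiquitous CAG promoter drives a red protein in mitochondria and the acrosin promoter drives a green protein in the acrosome, and cells positive for both colours were sorted, with cells of several mice pooled. Cauda spermatozoa were flushed out through the vas deferens, whereas tissue of the testis, caput and corpus was cut up and dispersed before sorting. The control group was thus obtained in another way, and the part of collection in its values was not tested. The study presents its RRBS results as coming from separate experiments, but neither it nor the labels say which mice went into which replicate. The technical part of the spread between replicates was not tested.

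Spermatozoa leave the testis and pass through the caput, the corpus and then the cauda of the epididymis, where they gain motility and are stored. DNA methylation in spermatozoa is largely laid down before meiosis, and mature spermatozoa carry highly condensed chromatin with little transcription. A site with an extreme in the corpus is one at which neither the populations before it nor the population after it reach the corpus level.

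Depth differed between the samples. Over the autosomal sites the samples held from 420774 reads, in corpus replicate 1, to 993646 reads, in testis replicate 2. Corpus replicates 1, 2 and 3 had a median coverage of 20, 42 and 30 reads per site, and 48.5% of the sites had under 20 reads in corpus replicate 1. The corpus group had the lowest total, 1857541 reads, against 2791855 for testis, 2181400 for caput and 2197985 for cauda. Between pairs of replicates of a group, the mean chi-square per site at sites of intermediate level ranged from 3.10, for testis replicates 2 and 3, to 12.0, for caput replicates 1 and 3. The value of about 1 that sampling would give holds for independent reads only, which copies made by PCR are not, so the values are a description of spread.

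The cell type label was checked at loci whose methylation marks germ cells. At the site within 2 kb of a start of H19, a gene whose control region is methylated on the paternal allele, all 12 samples lay between 87.1% and 98.9%. Whether this H19 site belongs to the control region was not tested. The 4 sites at the start of Rasgrf1, another gene of that list, lay between 0 and 13.8% in single samples, and Meg3 and Zdbf2 had no site within 2 kb of a start. The paternally methylated region of Rasgrf1 lies upstream of the gene rather than at its start. A hypomethylated member, singled out after its values were seen, was found 31631 bp from this gene, at position 89878277 of chromosome 9. Corpus samples held 50%, 64.2% and 60.0% there, from 10, 53 and 10 reads, testicular samples 95.5%, 93.5% and 82.1%, and cauda samples 100%, 92.1% and 93.3%. Caput samples held 49.0%, 100% and 86.5%, so corpus and caput overlapped. Whether the site belongs to the methylated region was not tested. The maternally methylated promoters were represented by 4 sites of Zrsr1 and 3 sites of Mcts2. At Mcts2 the corpus samples lay between 0 and 10.3%, whereas caput replicate 1 reached 73.3%. At Zrsr1 the corpus samples lay between 0 and 18.2%. Caput replicate 1 reached 64.3% at position 22972947 and held 14.3% at the other sites of this gene. At position 22972953 of Zrsr1 corpus had the highest pooled level, 13.2%, beside 3.92% in testis, 7.02% in caput and 0 in cauda. Corpus was also narrowly highest at positions 22972941 and 22972982, with 7.55% and 7.27% beside 7.27% and 7.02% in caput. At position 22972947 caput was highest, with 19.6% beside 7.84% in corpus.

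Dazl, a germ cell RNA-binding protein gene whose promoter is methylated in somatic cells, was the only germline promoter of the marker list with sites, 3 in number. At position 50294209 of chromosome 17 corpus replicates 1, 2 and 3 held 37.0%, 23.7% and 11.2% methylation. Testicular spermatozoa held 9.62%, 1.94% and 2.47%, caput spermatozoa 77.6%, 64.5% and 40.8%, and cauda spermatozoa 2.35%, 4.62% and 7.04%. The 3 corpus values were thus above all testicular and cauda values and below all caput values at this site, and the same held at position 50294229. At position 50294187 testis replicate 1 held 14.1% and corpus replicate 3 only 11.5%, so corpus and testis overlapped there. The pooled corpus level of 20%, 21.6% and 23.2% at the 3 sites goes against the low level that defines this marker in spermatozoa. The part of this difference in the sites with an extreme in corpus was not tested.

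The rule was applied in the same way to cauda spermatozoa as a control, and it returned 270 sites, almost the same number as for the corpus. These comprised 57 sites with cauda highest and 213 with cauda lowest. The share of sites with an extreme was 1.93% for the corpus and 1.94% for the cauda. Testicular spermatozoa were extreme at 174 sites, 61 highest and 113 lowest. Caput spermatozoa were extreme at 3032 sites, 1952 highest and 1080 lowest. The totals of corpus and control were level under this rule but not under each alternative. With the mean of the replicate percentages in place of the pooled level, 415 sites met the rule for corpus and 251 for cauda. Among sites with at least 20 reads in every sample it was met at 35 for corpus and 73 for cauda, which is 0.736% and 1.54% of them. Under the pooled rule 59.3% of the corpus sites and 78.9% of the cauda sites were in the lower class. The differences between these totals and splits were not tested.

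Replicate agreement was limited in both directions. All 3 corpus replicates lay above all 9 other samples at 12 of the 109 hypermethylated sites, which is 11.0%. Over all autosomal sites this was the case at 0.201%. At the hypomethylated sites all 3 corpus replicates lay below all 9 other samples at 13 of 159, or 8.18%, beside 0.137% of all sites. The rule used these same values, so nothing is read from the distance to the background. For the cauda control the counts were 7 of 57 highest sites, beside 0.388% of all sites, and 36 of 213 lowest sites, beside 0.661%. Both directions together gave 25 of 268 sites for the corpus and 43 of 270 for the cauda.

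A looser count compared each corpus replicate with pooled levels. At the hypermethylated sites all 3 corpus replicates exceeded the pooled level of the nearest other group at 44 sites, 2 replicates did so at 47 and only 1 at 18. Over all sites these shares were 4.78%, 12.7% and 22.5%. At the hypomethylated sites the counts were 63, 81 and 15, beside 2.41%, 9.44% and 23.6% of all sites. In both directions together all 3 replicates lay outside the nearest group at 107 of 268 sites for the corpus, beside 7.19% of all sites, and at 203 of 270 for the cauda, beside 14.02%. Only 1 replicate did so at 33 corpus sites, beside 46.1%, and at 2 cauda sites, beside 34.9%. The rule used these values too, and the difference between corpus and cauda was not tested.

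The SD between the 3 corpus replicates averaged 15.7 points at the hypermethylated and 20.1 points at the hypomethylated sites, beside 6.73 points over all autosomal sites. The rule chose on the pooled values of these replicates, so this spread is a description. In testis the SD averaged 5.67 and 8.45 points at the members, beside 4 over all sites. The averages were 10.1 and 11.1 points in caput, beside 8.99, and 6.55 and 7.14 points in cauda, beside 3.68. The shallowest sample, corpus replicate 1, was the farthest out most often, at 42 hypermethylated and 80 hypomethylated sites. Replicate 2, the deepest corpus sample, was farthest out at 22 sites in each direction, and replicate 3 at 38 and 52. The remaining 7 and 5 sites were tied. The part of depth in these counts was not tested.

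Without corpus replicate 1 the rule kept 80 of the 109 hypermethylated and 93 of the 159 hypomethylated sites. Without replicate 2 it kept 81 and 136, and without replicate 3 it kept 74 and 99. Only 27 hypermethylated and 42 hypomethylated sites were kept whichever corpus replicate was left out. For the cauda control 26 and 92 sites were kept in this way. The number of sites that met the rule rose when corpus replicate 2 was left out, to 218 hypermethylated and 562 hypomethylated sites, and without caput replicate 1 it rose to 198 hypermethylated sites. Without corpus replicate 3 there were 166 hypermethylated sites.

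To read the pattern in samples that took no part in the choice, the rule was applied to 2 replicates of every group and the remaining replicate of each group was then examined. With each replicate number held out in turn, 640 choices of a hypermethylated site were made, and the held-out corpus sample was the highest of the 4 held-out samples in 132, or 20.6%. Over all sites this was the case in 12.6%. For the hypomethylated class the held-out corpus sample was the lowest in 211 of 935 choices, or 22.6%, beside 12.7% over all sites. In 79 and 130 choices, respectively, the held-out corpus sample was instead the extreme of the opposite direction, which is 12.3% and 13.9%. In most choices the held-out corpus sample was therefore not an extreme in the chosen direction. A tied sample did not count as an extreme, and 39.9% of all sites had a mean level below 20% and 42.8% above 80%. The part of ties and of level in the shares over all sites was not tested, so nothing is read from the distance to them.

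The same reading was made for the other groups. The held-out cauda sample was highest in 67 of 262 choices, or 25.6%, beside 11.3% over all sites, and lowest in 292 of 870 choices, or 33.6%, beside 14.8%. It was extreme in the opposite direction in 19 and 45 choices. For the testis the shares were 25% and 22.5%, beside 10.4% and 14.9%, and for the caput 68.3% and 58.8%, beside 21.8% and 17.6%. The differences between the groups, and those from all sites, were not tested. In the hypermethylated class the corpus share was 13.4% with replicate 1 held out, 25.7% with replicate 2 and 26.0% with replicate 3, beside 9.25%, 14.9% and 13.5% over all sites. In the hypomethylated class the shares were 22.6%, 21.1% and 26.2%, beside 12.1%, 12.5% and 13.7%. With replicate 1 held out, the corpus sample was highest in 36 of 268 choices of a hypermethylated site and lowest in 36.

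Counting error alone was sizeable at single sites. The Wilson 95% interval of the pooled corpus level was clear of the intervals of all 3 other groups at 27 of 109 hypermethylated and 52 of 159 hypomethylated sites. Over all autosomal sites it lay above and clear of the others at 0.352% and below and clear of them at 0.525%. The rule used these values, so nothing is read from that distance. Such intervals take each read as an independent molecule, which copies made by PCR are not. They also leave out the spread between replicates. Coverage at the members was lower than elsewhere. The median coverage of corpus replicates 1, 2 and 3 was 17, 31 and 24 reads at the hypermethylated sites and 15, 33 and 22 reads at the hypomethylated sites. At least 20 reads in every sample were present at 14 hypermethylated and 21 hypomethylated sites, and at 4755 of all autosomal sites.

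The hypermethylated sites started mostly from a low level. Their median pooled level was 5.00% in testicular, 14.3% in caput, 28.2% in corpus and 4.96% in cauda spermatozoa. The testicular level was below 20% at 68 of the 109 sites, between 20% and 80% at 36 and above 80% at 5. All 3 other groups lay below 10% at 48 sites. At 17 sites not a single methylated read was found in the 9 other samples. Averaged over the sites, corpus replicates 1, 2 and 3 held 41.0%, 40.1% and 44.6%, a mean of 41.9% ± 2.39 (SD, n = 3). Testis averaged 22.6% ± 1.58, caput 25.8% ± 4.75 and cauda 22.2% ± 0.811 (SD, n = 3 each). At 17 of the sites 2 of the 3 corpus replicates were at 0%, so the pooled level rested on the remaining replicate.

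The hypomethylated sites mostly carried high methylation elsewhere. Their median pooled level was 90.6% in testicular, 88.5% in caput, 65.1% in corpus and 90.7% in cauda spermatozoa. The testicular level was above 80% at 100 of the 159 sites and between 20% and 80% at the other 59. All 3 other groups exceeded 90% at 61 sites. Averaged over the sites, corpus replicates 1, 2 and 3 held 52.7%, 66.9% and 57.4%, a mean of 59.0% ± 7.23 (SD, n = 3). Testis averaged 80.2% ± 3.71, caput 81.2% ± 1.78 and cauda 79.6% ± 0.906 (SD, n = 3 each). Corpus replicate 1 was the lowest of the corpus samples, and 2 of the 3 corpus replicates were fully methylated at 9 sites.

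Both directions had sites in every annotation class, in different shares, and the difference between the directions was not tested. Promoters, taken as 2 kb on either side of a transcription start, held 61 of the 109 hypermethylated sites (56.0%), against 43.8% of all autosomal sites. Of the other hypermethylated sites 4 lay in exons (3.67%), 10 in introns (9.17%) and 34 between genes (31.2%). Among the 159 hypomethylated sites 26 lay in promoters (16.4%), 13 in exons (8.18%), 41 in introns (25.8%) and 79 between genes (49.7%). Of all autosomal sites 6.30% lay in exons, 22.0% in introns and 28.0% between genes. Promoters held 4444 of the 5554 sites with a mean level below 20% and 915 of the 5951 sites above 80%. Between these levels they held 735 of 2412 sites. The hypermethylated members comprised 63 sites with a mean level below 20%, 38 between 20% and 80% and 8 above 80%. For the hypomethylated members these counts were 4, 67 and 88. The part of the starting level in these shares was not tested. Repeat-masked sequence held 11.9% of the hypermethylated and 17.0% of the hypomethylated sites, beside 15.9% of all sites. The sites lay on all 19 autosomes, with shares from 0.883% on chromosome 11 to 2.93% on chromosome 19.

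Most members stood alone, but only 64 of the hypermethylated and 83 of the hypomethylated members had another covered site within 100 bp. With sites of a direction within 100 bp of each other joined into a locus, the 109 hypermethylated sites formed 99 loci and the 159 hypomethylated sites 143. Only 7 hypermethylated and 12 hypomethylated loci held more than 1 member. A total of 91 sites within 100 bp of a hypermethylated member did not meet the rule, and at 37 of them corpus was still the highest group. Around the hypomethylated members corpus was the lowest group at 34 of 115 such sites. Over all sites corpus was highest at 16.0% and lowest at 13.1%. Neighbouring sites are often read in the same molecules and are not independent of the members.

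The cytosine on the opposite strand of the same CpG is read from other molecules, but few such pairs were covered. None of the hypermethylated members and 2 of the hypomethylated members had the partner cytosine in the table. Corpus was the lowest group at both partners, and neither partner met the 10-point rule. Over the 52 sites with a partner, corpus was lowest at 23.1% of the partners and highest at 11.5%.

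Among the hypermethylated sites with all 3 corpus replicates above all 9 other samples, the largest margin was 40.2 points. This site lay on the minus strand at position 84722640 of chromosome 8, 367 bp from the start of G430095P16Rik. Corpus replicates 1, 2 and 3 held 58.3%, 44.4% and 52.9%, from 12, 27 and 17 reads. Testicular spermatozoa held 5.71%, 14.7% and 5.41%, caput spermatozoa 26.3%, 6.67% and 0%, and cauda spermatozoa 16%, 0% and 0%. All 3 corpus samples were above every other sample. The pooled corpus level of 50% had a Wilson 95% interval from 37.3% to 62.7%, and the nearest group, caput, had an interval from 4.59% to 19.8%.

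The second largest such margin, 27.3 points, was found at position 6127086 of chromosome 19, 721 bp from a start of Snx15, a sorting nexin gene of endosomal trafficking. Corpus samples held 60.0%, 62.2% and 92.9%. Testicular samples held 25.9%, 59.3% and 37.0%, caput samples 33.3%, 48.4% and 27.3%, and cauda samples 36.4%, 40.6% and 54.0%. The lowest corpus sample and the highest testicular sample differed by under 1 point, so the groups were separated only narrowly. The pooled corpus level was 71.8%, with an interval from 61.4% to 80.2%.

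At position 37854380 of chromosome 16, 402 bp from the 5S ribosomal RNA gene n-R5s34, corpus samples held 31.2%, 8.57% and 39.1%. Testis replicate 2 held 4.84% and the 8 other samples 0%. Each corpus sample was above every other sample, with a wide spread between them.

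The next 4 such loci had margins from 14.5 to 17.0 points. Near Neurod2, a neuronal transcription factor gene 8774 bp away on chromosome 11, corpus samples held 5.00%, 17.4% and 25.6% at position 98338422. Caput replicate 1 held 3.45% and the 8 other samples 0%. In an intron of the semaphorin gene Sema6d, at position 124352981 of chromosome 2, corpus samples held 60.0%, 57.1% and 66.7% and the highest other sample 53.3%. The site near Foxo1, a forkhead transcription factor gene 5552 bp away on chromosome 3, held 76.9%, 88.4% and 100% in corpus samples at position 52262784. Caput replicate 3 held 76.2% there, so the separation from the lowest corpus sample was under 1 point. The other 4 hypermethylated sites of this kind lay near Gm48089, Kcnrg and Frs2 and in an exon of Ablim1, with margins from 10.4 to 14.5 points.

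At the promoter of Hectd2os, an antisense transcript, 2 neighbouring hypermethylated sites were found on chromosome 19, and the coverage was 32 or more reads in every sample. At position 36705461 corpus samples held 43.6%, 27.8% and 28.1%. Testicular samples held 11.1%, 0% and 0%, caput samples 12.5%, 25% and 0%, and cauda samples 1.54%, 0% and 6.15%. At position 36705468 corpus samples held 38.1%, 22.2% and 28.1%, and caput replicate 2 reached 25.9%. The corpus samples were thus above all testicular and cauda samples at both sites and overlapped with caput at the latter.

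The hypermethylated locus with most sites rested on 1 sample. It held 4 members on chromosome 13, between positions 119462863 and 119462871, in the promoter of 4833420G17Rik. At the first of them corpus replicate 1 held 31.2% and corpus replicates 2 and 3 held 0%. No member of this locus had methylated reads in corpus replicates 2 or 3, and their margins ran from 10.1 to 10.4 points. The locus was read by 16 or 17 reads in corpus replicate 1, and the 4 sites share those molecules.

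Of the fixed gene lists only the Hox genes, which encode homeobox factors that pattern the body axis, held members. There were 3 members among 54 promoter sites of 20 Hox genes, all hypermethylated and all within 2 kb of the start of Hoxa4 on chromosome 6. The corpus rule was met at 1.93% of all autosomal sites, and these 3 sites are neighbours. The cauda rule was met at 2 of the Hox sites and at 1 site of the DNA methylation enzymes. At position 52190649 corpus samples held 5.56%, 39.3% and 21.4%. Testicular samples held 0%, 15% and 0%, caput samples 17.2%, 0% and 0%, and cauda samples 19.05%, 0% and 0%. Corpus replicate 1 lay within the range of the other groups, and positions 52190665 and 52190671 gave almost the same corpus values. At both of these caput replicate 1 held 31.0%, above corpus replicate 3 with 21.4% and 22.2%. At the former testis replicate 2 held 23.8%, so 2 of the 3 corpus samples overlapped with other groups there. No member was found at the 12 covered promoter sites of imprinted genes, the 5 of germline genes, the 5 of DNA methylation enzymes or the 5 of loci examined in the study. Promoters of the epididymal epithelium and leukocyte lists had no covered site.

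The other hypermethylated loci with 2 sites included Fignl2 and Cdh6 on chromosome 15. At the promoter of Fignl2, position 101054210, corpus samples held 0%, 25.8% and 33.3%, and caput replicate 3, with 6.67%, was the only other sample above 0%. In an intron of the cadherin gene Cdh6, position 13067420, corpus samples held 100%, 84.0% and 100%. Caput samples there ranged from 25% to 100% and cauda replicate 1 held 88.2%, so both groups overlapped with them.

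Among the hypomethylated sites with all 3 corpus replicates below the 9 other samples, the largest margin was 31.3 points. The site lay on chromosome 4 at position 117509005, between genes and 11953 bp from the ubiquitin ligase gene Rnf220. Corpus samples held 0%, 38.5% and 0%, from 10, 13 and 15 reads. Testicular samples held 68.0%, 42.9% and 76.9%, caput samples 90.5%, 74.1% and 100%, and cauda samples 45.5%, 45.5% and 42.9%. At the neighbouring member, position 117509035, corpus samples held 60.0%, 30.8% and 0% and overlapped with the other groups.

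A more even separation was seen at 2 other sites. On chromosome 5, position 114513546, between genes and 52955 bp from the mevalonate kinase gene Mvk, corpus samples held 50%, 59.3% and 60.7%, and the lowest of the other samples held 75%. In an intron of Suclg2, a subunit gene of succinyl-CoA synthetase, corpus samples held 62.5%, 80% and 60.9% at position 95676653 of chromosome 6. All caput and cauda samples were at 100% there, and testicular samples at 100%, 91.1% and 100%. The pooled corpus level was 69.6%, with an interval from 57.9% to 79.2%, and that of testis was 96.5%, with an interval from 91.3% to 98.6%.

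The remaining 4 named sites of this kind had margins from 16.3 to 22.9 points. At the promoter of 4930470P17Rik, in repeat-masked sequence at position 170600371 of chromosome 2, corpus samples held 59.4%, 77.8% and 76.0%, and no other sample was below 87.5%. In a noncoding exon of Gm31641, position 95185074 of chromosome 16, they held 82.1%, 80% and 77.8%, and all other samples but testis replicate 1, with 93.3%, were at 100%. In an intron of Ctnnbl1, position 157882088 of chromosome 2, they held 42.1%, 96.0% and 81.6%, and no other sample was below 98.2%. Near Alox5ap, 29740 bp away on chromosome 5, corpus samples held 53.3%, 83.3% and 82.5% at position 149317893, and the lowest other sample held 90.3%. At the last 2 sites corpus replicate 1 stood apart from the other corpus samples. The other 5 hypomethylated sites of this kind lay near Ttc6, Fubp3 and Acp6 and in introns of Chrm3 and Foxn3, with margins from 10.4 to 14.99 points.

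The hypomethylated locus with most sites held 4 members in an intron of Dab1, an adaptor of reelin signalling in neurons, between positions 103954030 and 103954056 of chromosome 4. At the last of them corpus samples held 0%, 78.6% and 60.9%, from 10, 14 and 23 reads. Testicular samples held 72.0%, 100% and 96.0%, caput samples 71.4%, 100% and 100%, and cauda samples 85.7%, 100% and 100%. Replicate 1 was the lowest sample of all 4 groups at this site, and corpus replicate 2 lay above the lowest testicular and caput samples.

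Near Tle4, a corepressor gene, 3 members lay between positions 14426634 and 14426666 of chromosome 19. At the first, corpus samples held 72.7%, 37.5% and 6.25%, and caput samples 50%, 46.3% and 41.9%, so corpus replicate 1 was above all caput samples. In the promoter of the noncoding gene Gm26917 on chromosome 17, 3 members were hypomethylated. At position 39844872 corpus samples held 5.88%, 11.6% and 0%, caput samples 39.3%, 22.0% and 9.09%, and cauda samples 33.3%, 33.3% and 11.1%. Corpus replicate 2 overlapped with both groups. A hypermethylated member, singled out after its values were seen, lay in the same promoter at position 39844767, on the opposite strand, with a margin of 34.0 points. Corpus samples there held 87.7%, 26.9% and 79.5%, and corpus replicate 2 lay below caput replicates 2 and 3 with 38.9% and 55%. Near Greb1l on chromosome 18, corpus samples held 10.5%, 35.3% and 66.7% at position 10275799, and corpus replicate 3 overlapped with testicular samples of 71.7%, 64.6% and 54.8%.

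The margin of 10 points cut through a continuous range. The hypermethylated members nearest to it were a site at the promoter of Chrm5 with a margin of 10.03 points, the Hoxa4 site at position 52190665 with 10.04 points and a site near Csmd1 with 10.1 points. The nearest sites outside were in an intron of Clec2g with 9.97 points and at the promoters of Gm12780 and Gm48089 with 9.95 points each. In the lower direction the nearest members were sites near Arl4a, near Hes1 and in an intron of Mast4, with 10.02, 10.1 and 10.1 points. The nearest outside were in an intron of Spock1, near Prl2c3 and in an exon of Lrp12, with 9.89, 9.86 and 9.84 points. The median margin was 12.3 points for hypermethylated and 13.6 points for hypomethylated members.

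Sequence around some of the sites with large replicate-separated margins and around some of the loci with several members is given for the plus strand of GRCm38, 5′ to 3′. Capitals mark the CpG of each member site, and 50 bases were kept on either side. The first group was hypermethylated in corpus spermatozoa.
G430095P16Rik locus, chr8:84722590-84722690: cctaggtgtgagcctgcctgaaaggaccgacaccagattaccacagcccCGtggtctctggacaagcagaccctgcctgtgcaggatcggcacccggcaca
Snx15 locus, chr19:6127036-6127136: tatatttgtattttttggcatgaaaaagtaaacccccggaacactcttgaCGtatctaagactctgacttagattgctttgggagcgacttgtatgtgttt
Hoxa4 locus, chr6:52190599-52190721: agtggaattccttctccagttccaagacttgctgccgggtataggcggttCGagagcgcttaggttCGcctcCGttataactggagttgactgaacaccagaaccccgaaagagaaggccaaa
The windows differed in composition, from 37.6% G and C at Snx15 to 62.4% at G430095P16Rik, and the Hoxa4 window held 7 CpGs, of which 3 were members.

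The following windows surround hypomethylated sites.
Rnf220 locus, chr4:117508955-117509085: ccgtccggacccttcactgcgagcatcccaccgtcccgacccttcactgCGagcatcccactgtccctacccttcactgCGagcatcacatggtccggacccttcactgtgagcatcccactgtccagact
Mvk locus, chr5:114513496-114513596: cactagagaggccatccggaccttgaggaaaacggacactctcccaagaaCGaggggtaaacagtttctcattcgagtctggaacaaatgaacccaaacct
Suclg2 locus, chr6:95676603-95676703: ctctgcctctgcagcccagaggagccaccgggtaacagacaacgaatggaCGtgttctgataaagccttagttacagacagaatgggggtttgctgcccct
Dab1 locus, chr4:103953980-103954106: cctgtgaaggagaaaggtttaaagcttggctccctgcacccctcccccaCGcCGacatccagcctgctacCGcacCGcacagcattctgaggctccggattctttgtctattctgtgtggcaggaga
Tle4 locus, chr19:14426584-14426716: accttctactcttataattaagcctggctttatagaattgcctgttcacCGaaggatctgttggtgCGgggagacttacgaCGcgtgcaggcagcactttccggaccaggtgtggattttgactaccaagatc
At Dab1, 4 of the 5 CpGs in the window were members, and at Tle4 3 of 6 were. The median number of CpGs within 100 bp of a site was 6 for hypermethylated members, 5 for hypomethylated members and 6 for all autosomal sites.

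Contrasts that did not involve corpus spermatozoa were read at the members from logistic regression on the reads of all autosomal sites. The rule also used the pooled levels of testis, caput and cauda, so the counts at members are a description and nothing is read from their distance to all sites. A site was called at a Benjamini-Hochberg adjusted p under 0.01 and a difference above 25 points. Between caput and testicular spermatozoa, 4 of the 109 hypermethylated members were called higher in caput and 1 lower. Over all sites 11.6% were called higher and 5.28% lower. Of the 159 hypomethylated members 5 were called higher in caput and 4 lower. In all 14 members were called. With an overdispersion term, which allows for the spread between replicates, 0 sites of the table were called, and 19 members (7.09%) passed at an unadjusted p under 0.05, beside 17.3% of all sites. limma called 12 sites of the table at a pseudo-percent of 1 and 5 sites at a pseudo-percent of 5, with 0 members among them.

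Between cauda and testicular spermatozoa, 0 of the 268 members were called by the logistic regression, beside 0.101% of all sites higher and 0.129% lower in cauda. At an unadjusted p under 0.05, 38 members (14.2%) passed, beside 22.7% of all sites. With the overdispersion term or limma 0 members were called, and 5 (1.87%) passed at an unadjusted p under 0.05 with each. Over all sites 3.10% passed with the overdispersion term, and 4.09% and 3.99% with limma at a pseudo-percent of 1 and 5. The median difference between caput and testis was 0.881 points at the hypermethylated members and 0 at the hypomethylated members and over all sites. With a sample left out it ran from 0 to 1.53 points at the former and from 0 to 1.01 points at the latter members. Between cauda and testis the medians were 0, -0.703 and 0 points. That of the hypomethylated members ran from -1.28 to 0.234 points with a sample left out, so its sign was not kept.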

How the data were processed

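Counts of reads per CpG site were taken from the deposited table. The authors trimmed reads with Trim Galore 0.4.1, aligned them to GRCm38 with Bismark 0.16.1, per the submitters' processing notes, and deposited raw counts per sample and site, namely the coverage and its split into methylated and unmethylated calls. All 36 per-sample columns were used, and the lowest coverage in them was 10. The authors' lists of differentially methylated sites and regions hold methylation differences, p-values and q-values and were not used. Sex chromosomes, with 207 sites on X and 25 on Y, were left out of the rule.

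Pooled levels, margins, held-out counts and Wilson intervals were computed in Python 3.11.15 with numpy 2.4.6, pandas 2.3.3 and scipy 1.17.1. Genes were assigned from the GENCODE M21 annotation by promoter, then exon, then intron, and sequence was read with pysam 0.24.0. The likelihood-ratio chi-square of the logistic regression was adjusted over all 13917 autosomal sites. limma 3.58.1 in R 4.3.3 was an alternative. The steps were run on simulated reads that held no spread between replicates beyond counting, so the run does not cover the spread in these data.

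Named sites were, per direction, the 8 loci with the largest margin among sites with all corpus replicates beyond the 9 other samples, up to 5 loci with most members, members in promoters of the gene lists, and 3 sites on either side of the margin. Of these sites, 2 are not reported here. Members and lists were chosen with earlier results of these data known. Alternatives changed the margin, the coverage minimum, the pooling, the joining of neighbours, the chromosomes, the samples and the test.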

Additional observations from a re-analysis of the deposited data

How the results depend on the processing

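The counts moved by over 1.5 times with the margin. Corpus was highest at 359, 29, 7 and 4 sites and lowest at 509, 61, 19 and 8 sites with margins of 5, 15, 20 and 25 points. Cauda was highest at 301, 8, 1 and 0 sites and lowest at 655, 71, 24 and 6. With at least 20 reads in every sample the counts were 14 and 21 for corpus and 8 and 65 for cauda, among 4755 sites. The mean of replicate percentages gave 129 sites with corpus highest and 286 with corpus lowest, against 52 and 199 for cauda, and with caput replicate 1 and corpus replicate 1 both left out 275 sites had corpus highest. Leaving out each sample in turn gave 99 to 218 sites with corpus highest, 148 to 562 with corpus lowest, 48 to 85 with cauda highest and 181 to 304 with cauda lowest. The cause was not tested.

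The share of sites with all replicates beyond the 9 other samples was 9.33% for corpus and 34.6% with a margin of 20 points, or 9 of 26 sites. For cauda it was 15.9%, 36.0% with that margin and 23.3% with at least 20 reads in every sample. With at least 20 reads in every sample the share for corpus was 11.4%, or 4 of 35 sites. The held-out share averaged 22.1% over the 3 replicate numbers, beside 12.7% over all sites, with ties again not counted as an extreme. It was 10.8% where the held-out sample had to lie beyond by at least 10 points, beside 3.83%, and 17.6% with replicate number 1 by itself, beside 10.7%.

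Of the members, 14 were called between caput and testis, beside 16.8% of all sites, and 51 with a difference above 10 points, beside 27.5%. With the overdispersion term 0 were called, and 0 with limma at a pseudo-percent of 1 or 5. Leaving out a sample gave 12 to 25, beside 11.9% to 19.6% of all sites. Between cauda and testis 5 were called with a difference above 10 points, beside 1.44% of all sites. In this contrast leaving out a sample gave 0 to 2, beside 0.230% to 0.453% of all sites. With the replicate number as a block, 14 and 0 members were called, as without it, and over all sites 2342 in place of 2343 and 31 in place of 32. Between samples of the same number in any 2 groups the correlations ran from -0.122 to 0.0592, none over 0.1, so the numbers were taken only as names. Every cauda sample correlated best with its own number in caput and in corpus, which did not hold for the other pairs of groups.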

Other observations

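On the X chromosome the rule found 1 site with corpus highest and 1 with corpus lowest among 207 sites, and 0 sites with cauda highest and 6 with cauda lowest. On the Y chromosome, with 25 sites, it found 0 for corpus and 2 with cauda lowest.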
